A study of Mus musculus with 7 samples.

Results

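Loss of Uhrf1 was examined in LSK cells (lineage-negative, Sca-1-positive, Kit-positive), the fraction of fetal liver that holds the hematopoietic stem cells, by setting 3 Uhrf1-/- libraries against 3 wild-type libraries. These are 6 of the 7 libraries of the series. The remaining library, of wild-type LK progenitors, entered no test. All came from C57BL/6 fetal livers at 13.5 days post coitum, with about 10000 cells per library sorted through 2 rounds. The labels describe 3 independent experiments. They do not say how many embryos or litters a library holds, so a p-value here reflects only how far these libraries vary. The labels and notes used here do not say how Uhrf1 was deleted or which of its exons are missing. The level of each gene is given in FPKM, fragments scaled to transcript length and sequencing depth. Genes averaging 1 FPKM or more across the 6 libraries were tested, which left 10608.

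Uhrf1 is a nuclear protein that recognises newly copied DNA in which only the old strand carries methyl groups, and it brings the maintenance methyltransferase Dnmt1 there. It also reads marks on histone H3 and works as a ubiquitin ligase. In dividing cells that lack it, CpG methylation is diluted as the DNA is copied, and DNA methylation is known to keep many germline genes and transposable elements silent in blood cells.

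Uhrf1 itself was at 63, 66.8 and 113 FPKM in wild-type LSK and 10.2, 8.78 and 18.6 FPKM in Uhrf1-/- LSK. Every Uhrf1-/- library was below every wild-type library. On the log2(FPKM + 1) scale, used for all differences here, Uhrf1 fell by 2.62 ± 0.34 (SE; adjusted p = 0.0183 without the block and 4.16e-06 with it). Without the block it missed the threshold when wild-type replicate 1, 2 or 3 or Uhrf1-/- replicate 2 was left out, with adjusted p of 0.0859, 0.109, 0.0647 and 0.0614. Reads were still counted for Uhrf1 in the Uhrf1-/- libraries, and gene-level values cannot show from which transcripts or cells. The sort markers were present in all 6 libraries. Kit, the stem cell factor receptor, was between 24.4 and 56.6 FPKM and Ly6a, which encodes Sca-1, was between 26.4 and 96.4 FPKM, against 0.32 FPKM for Ly6a in the LK library.

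With limma and an adjusted p under 0.05, 12 genes rose and 6 fell in Uhrf1-/- LSK, which is 0.113% and 0.0566% of the genes tested (0.17% together). Libraries with the same replicate number deviated together from their group means, most clearly those of replicate 3. A fit that compares the libraries within these 3 pairs, called the block, found 131 genes higher and 88 lower, or 1.23% and 0.83% (2.06% together). All 18 genes of the first fit were among them. The difference had the same direction in all 3 pairs for each of the 219, and in 191 of them the 3 values of one genotype did not overlap the 3 of the other. Over all genes, 4.61% were higher and 6.16% lower with no overlap (10.8% together). Sizes ranged from 0.92 to 3.19 among the genes that rose and from 0.90 to 2.80 among those that fell. A gene can pass the level filter through 1 group alone: 21 of the 131 averaged under 1 FPKM in wild-type LSK and 25 of the 88 under 1 FPKM in Uhrf1-/- LSK. Among genes named below, the former include Sva, Cdc42ep5, Gna14, F2rl2, Slc45a3, Gp5 and Ear1. The latter include Stc1, Slc26a11, Il7r, Rasgrp3, Scarna13, Pirb, Il10ra, Lpar1 and Ptger2. Any p-value printed below for genes of either kind carries that limit and is a description, not support. The counts depended on the libraries. Without the block, leaving out any 1 of the 6 left 0 to 3 genes higher and 0 to 1 lower. Without pair 2 the block fit found 13 genes higher and 8 lower, without pair 1 it found 338 and 318, and without pair 3 it found 117 and 84.

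Wild-type replicate 2 stood apart from the other libraries. Its FPKM values summed to 570509, against 851271 to 1128572 in the other 5 LSK libraries, and ribosomal protein genes took 4.75% of its counts against 10.6% to 15.7%. The difference between the genotypes varied with transcript length in its pair. Among the shortest of 5 equal groups of genes, with transcripts from 79 to 1830 nucleotides, the median difference was −0.08 in pair 1, 0.56 in pair 2 and 0.02 in pair 3. In the group of middle length it was 0.03, −0.31 and −0.09. When every gene was compared with others of like length in each library, a treatment of the data chosen after seeing them, the block fit found 102 genes higher and 67 lower. Of the genes called before, 96 and 62 were called again. A gene below that lost its call in this way is named. Replicates 1 and 2 of the Uhrf1-/- group were closer to each other than any other pair of libraries, but differed by more than sampling noise.

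**Figure D1:**
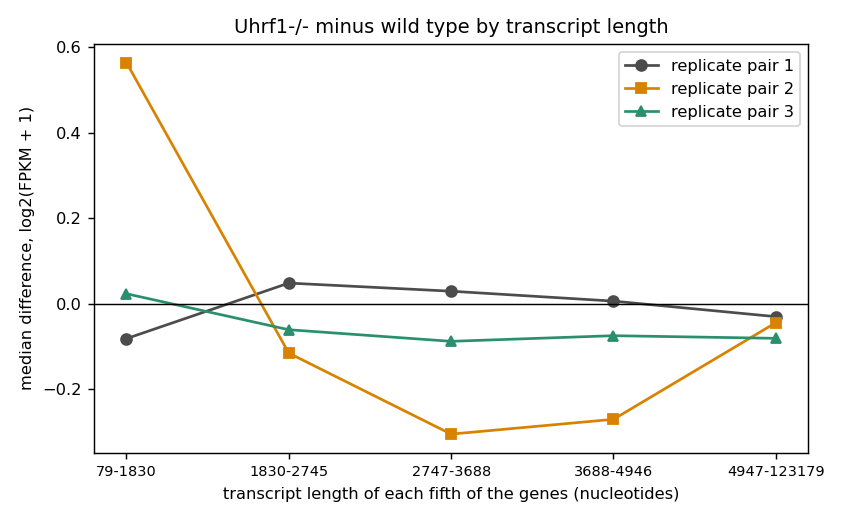
Median difference between Uhrf1-/- and wild-type LSK (log2(FPKM + 1), y axis) for 5 equal groups of genes by transcript length (x axis), with a line for each same-number replicate pair. Pair 2 runs from 0.56 in the shortest group to −0.31 in the third group, while pairs 1 and 3 stay between −0.09 and 0.05.

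Among the 40 genes with the largest block-fit differences whose groups did not overlap, several belonged to none of the 77 functional lists examined. Sva, a gene for a secreted protein of the seminal vesicle, was listed at 0 FPKM in all 3 wild-type libraries and in the LK library. It was at 3.31, 2.87 and 2.27 FPKM in Uhrf1-/- LSK, and so passed the level filter only through them. No test is given for it. Mfsd2b, the exporter of sphingosine-1-phosphate in red cells and platelets, was at 1.26, 2.67 and 1.47 FPKM in wild-type LSK and 12.2, 11 and 9.7 FPKM in Uhrf1-/- LSK. It rose by 2.12 ± 0.28 (SE; adjusted p = 0.0183 without the block and 6.83e-05 with it).

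Tmem40, a transmembrane protein gene, was at 16.9, 10.8 and 14.1 FPKM in wild-type LSK and 55.9, 58.9 and 43.6 FPKM in Uhrf1-/- LSK. It rose by 1.86 ± 0.27 (SE; adjusted p = 0.0272 without the block and 0.000213 with it), with no overlap. Ppp1r14a encodes CPI-17, an inhibitor of myosin phosphatase best known from smooth muscle. Values were 2.8, 0.888 and 0.45 FPKM in wild-type LSK and 10.5, 8.78 and 3.77 FPKM in Uhrf1-/- LSK, and 0 FPKM in the LK library. All 3 Uhrf1-/- values lay above all wild-type values, and Ppp1r14a rose by 1.90 ± 0.24 (SE; adjusted p = 0.000155 with the block). The call was absent without the block (adjusted p = 0.158) and, with the block, on the count values (adjusted p = 0.272). Sapcd1 was at 6.7, 1.82 and 5.72 FPKM in wild-type LSK and 20.9, 16.9 and 15.1 FPKM in Uhrf1-/- LSK and rose by 1.81 ± 0.28 (SE; adjusted p = 0.000902 with the block). Sapcd1 was not called without the block (adjusted p = 0.106). Gata2, a zinc finger factor of stem and mast cells called without the block but outside these 40 genes, was at 33.4, 41 and 23.5 FPKM in wild-type LSK and 116, 104 and 119 FPKM in Uhrf1-/- LSK, against 24.7 FPKM in the LK library. It rose by 1.79 ± 0.28 (SE; adjusted p = 0.0387 without the block and 0.000462 with it).

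Genes that fell included Stc1, which encodes the secreted glycoprotein stanniocalcin-1. It was at 2.24, 3.79 and 2.19 FPKM in wild-type LSK and 0.326, 0.234 and 0.14 FPKM in Uhrf1-/- LSK, and fell by 1.58 ± 0.25 (SE; adjusted p = 0.0429 without the block and 0.000707 with it). Mn1, a transcriptional coregulator known from leukemia, was at 10.1, 5.49 and 11.4 FPKM in wild-type LSK and 3.19, 2.62 and 1.68 FPKM in Uhrf1-/- LSK and fell by 1.49 ± 0.27 (SE; adjusted p = 0.00346 with the block). Neither overlapped between the genotypes. Pirb, an inhibitory immunoglobulin-like receptor, was at 4.17, 7.14 and 3.88 FPKM in wild-type LSK and 0.788, 1.19 and 0.506 FPKM in Uhrf1-/- LSK and fell by 1.71 ± 0.23 (SE; adjusted p = 0.000247 with the block). Scarna13, a small RNA of the Cajal body, was listed at 0 FPKM in every Uhrf1-/- library and at 4.54, 1.53 and 0.50 FPKM in the wild-type libraries. Its call (adjusted p = 0.0261 with the block) was not made on the count values (adjusted p = 0.71). Without the block Mn1, Pirb and Scarna13 were not called (adjusted p = 0.128, 0.0539 and 0.312). The plot of differences by pair shows all of these genes except Gata2.

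**Figure D2:**
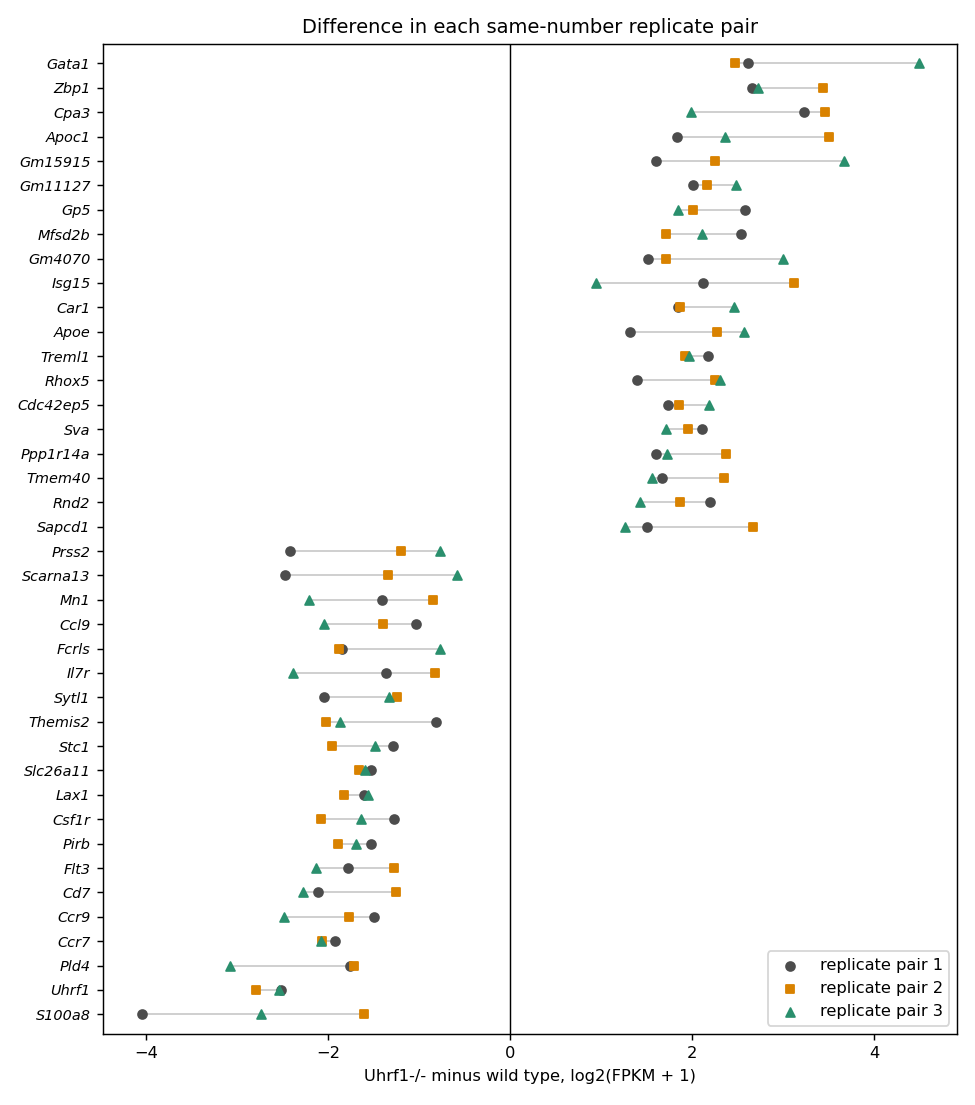
Difference between Uhrf1-/- and wild-type LSK in each same-number replicate pair (x axis, log2(FPKM + 1)). The genes are the 20 largest rises and 20 largest falls in the block fit among genes whose groups do not overlap. Grey lines span the 3 pairs. That no gene has a point on the other side of 0 follows from this choice.

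The 77 lists held 51 genes called with the block. Of these, Apoc1, Cdc42ep5, Itga2b and Slc26a11 were also called without it, and the other 47 had adjusted p from 0.0588 to 0.942 there. With the block, 50 of the 51 were called again without pair 1, 28 without pair 3, and 5 without pair 2, namely Apoc1, Cdc42ep5, Gar1, Itga2b and Pld4. On the count values 31 were called. Those that were not included Aldoc, Atf5, Camk2d, Cdc42ep5, Ctss, Gpr160, Gpr171, Lpar6, Marcks, Mgst2, Myl10, Nfil3, Nupr1, Shank3, Slc41a3, St8sia4, Tnfrsf13c, Tnni3 and Tpm4. With a pseudocount of 0.1, calls with the block were lost for Camk2d, Dynll2, Gpr160, Myl10, Nupr1, Rhox5 and Shank3 among others, and with median-of-ratios scaling for Camk2d, Gpr160, Tnfrsf13c, 1700097N02Rik and C030013G03Rik among others. Counts of called list members stand against the 2.06% of all genes called. Over the 30 lists with a call the share ran from 1.96% to 23.1%. The lists were chosen with earlier results of these data known, so a share above 2.06% is no independent support.

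In signalling, most members of each list did not pass the test. Cdc42ep5, an effector that binds Cdc42, was at 1.08, 0.578 and 0.50 FPKM in wild-type LSK and 5.94, 4.72 and 5.84 FPKM in Uhrf1-/- LSK. The groups did not overlap and it rose by 1.93 ± 0.25 (SE; adjusted p = 0.0183 without the block and 8.03e-05 with it). Cdc42ep5 passed the level filter through the Uhrf1-/- libraries alone, so these p-values are given as a description only. Rnd2, a small GTPase that stays bound to GTP, was at 6.38, 6.4 and 3.57 FPKM in wild-type LSK and 32.9, 26 and 11.3 FPKM in Uhrf1-/- LSK and rose by 1.83 ± 0.25 (SE; adjusted p = 0.000269 with the block). The exchange factor Arhgef3 was at 5.79, 12.7 and 9.85 FPKM in wild-type LSK and 2.72, 3.03 and 3.23 FPKM in Uhrf1-/- LSK and fell by 1.33 ± 0.25 (SE; adjusted p = 0.00498 with the block). The median difference over all genes was −0.03. Among 33 regulators of Ras and Rap, 1 fell. It was Rasgrp3, an exchange factor that responds to diacylglycerol, at 2.37, 3.35 and 2.26 FPKM in wild-type LSK and 0.563, 0.595 and 0.421 FPKM in Uhrf1-/- LSK, with a fall of 1.25 ± 0.23 (SE; adjusted p = 0.00421 with the block).

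G proteins pass signals from G protein-coupled receptors to enzymes inside the cell. Of 31 genes for G protein subunits and RGS proteins, 2 rose and none fell (6.45% against 2.06% of all genes). Gna14, a subunit that activates phospholipase C, was at 0.188, 0.709 and 0.517 FPKM in wild-type LSK and 2.14, 2.21 and 3.04 FPKM in Uhrf1-/- LSK and rose by 1.24 ± 0.23 (SE; adjusted p = 0.00524 with the block). Gnb4, a beta subunit, was at 6.63, 8.29 and 4.8 FPKM in wild-type LSK and 14.3, 16.8 and 20.5 FPKM in Uhrf1-/- LSK and rose by 1.28 ± 0.26 (SE; adjusted p = 0.00872 with the block). Both were separate between the genotypes in all 6 libraries. Of 33 receptors of this class on the list, 1 rose and 5 fell. That is 18.2% of the list against 2.06% of all genes, and the median was −0.14.

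F2rl2, the thrombin-activated receptor PAR3, was the one that rose. It was at 0.499, 0.74 and 0.558 FPKM in wild-type LSK and 2.22, 4.21 and 1.98 FPKM in Uhrf1-/- LSK and rose by 1.21 ± 0.24 (SE; adjusted p = 0.00691 with the block). The lysophosphatidic acid receptor genes Lpar1 and Lpar6 both fell. Lpar6 was at 3.97, 9.39 and 7.1 FPKM in wild-type LSK and 2.2, 3.18 and 2.22 FPKM in Uhrf1-/- LSK and fell by 1.09 ± 0.24 (SE; adjusted p = 0.0188 with the block). Lpar1 had 1.5, 1.83 and 3.3 FPKM in wild-type LSK and 0.702, 0.294 and 0.598 FPKM in Uhrf1-/- LSK and fell by 1.04 ± 0.24 (SE; adjusted p = 0.0261 with the block). The orphan receptor genes Gpr160 and Gpr171 also fell, by 0.92 and 1.17. After centring on transcript length none of the 5 receptors that fell was called, with adjusted p between 0.0563 and 0.107. Ptger2, a prostaglandin E2 receptor gene, was at 1.54, 3.11 and 2.19 FPKM in wild-type LSK and 0.747, 0.521 and 0.222 FPKM in Uhrf1-/- LSK. It fell by 1.12 ± 0.25 (SE; adjusted p = 0.0167 with the block) and was not called after that centring (adjusted p = 0.0734).

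Of 27 receptors for interleukins and TNF ligands 3 fell (11.1% against 2.06% of all genes), and the median was −0.32. Il7r, the receptor for the lymphoid growth factor IL-7, was at 2.29, 1.43 and 4.56 FPKM in wild-type LSK and 0.281, 0.371 and 0.0679 FPKM in Uhrf1-/- LSK. Il10ra, a receptor chain for the anti-inflammatory cytokine IL-10, was at 2.43, 3.27 and 1.83 FPKM in wild-type LSK and 0.498, 0.836 and 0.335 FPKM in Uhrf1-/- LSK. Tnfrsf13c, the receptor for the B cell survival factor BAFF, was at 4.7, 6.0 and 4.32 FPKM in wild-type LSK and 2.98, 2.39 and 1.01 FPKM in Uhrf1-/- LSK. None of the 3 overlapped, and they fell by 1.52, 1.17 and 0.99. Il10ra was called after length centring (adjusted p = 0.0418), and Il7r and Tnfrsf13c were not (adjusted p = 0.078 and 0.0721). The summed level of 10 lymphoid marker genes was 68.2 to 113 FPKM in the wild-type and 14.3 to 35.5 FPKM in the Uhrf1-/- libraries, with Cd3e at 0 and Dntt under 0.1 FPKM throughout. Flt3 held most of each sum, at 102, 69.5 and 49.8 FPKM in wild-type LSK and 29.1, 28.1 and 10.6 FPKM in Uhrf1-/- LSK. Of the 5 tested members 3 fell with the block, Il7r among them, and Cd79a and Vpreb1 overlapped between the genotypes. The part of lymphoid cells in these falls was not tested. In such bulk libraries, fewer cells of a type and less RNA per cell cannot be told apart.

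The TGF-beta family signals through serine kinase receptors to Smad proteins. Of its 24 tested genes 2 rose. The ligand gene Gdf3 was at 2.11, 3.59 and 1.37 FPKM in wild-type LSK and 9.28, 9.36 and 5.25 FPKM in Uhrf1-/- LSK, and 24.6 FPKM in the LK library. It rose by 1.43 ± 0.24 (SE; adjusted p = 0.00196 with the block). The coreceptor gene Tgfbr3 rose by 0.96 ± 0.23 (SE; adjusted p = 0.0296 with the block). Id2, a target of this pathway that blocks bHLH factors, was at 26.3, 23.2 and 24.4 FPKM in wild-type LSK and 15.3, 15.3 and 4.94 FPKM in Uhrf1-/- LSK, with a difference of -1.13 ± 0.29 (SE; adjusted p = 0.0509 with the block), just outside the threshold. No gene was called among 17 of the Wnt pathway, 14 of the Hedgehog and Hippo pathways, 20 nuclear receptor genes, 16 axon guidance genes, 22 growth factors and 49 phosphoinositide enzymes by limma with the block. Unadjusted p was under 0.05 for 1, 1, 5, 3, 3 and 3 of them. Tcf7l2, a DNA-binding partner of beta-catenin, was lower without overlap, at 5.76, 4.58 and 6.22 FPKM in wild-type LSK and 2.04, 2.06 and 3.47 FPKM in Uhrf1-/- LSK, and missed the threshold (adjusted p = 0.0514 with the block). Camk2d, a calmodulin-dependent kinase gene, was the 1 of 30 calcium genes that fell, by 0.94 ± 0.24 (SE; adjusted p = 0.0452 with the block), and was not called after length centring (adjusted p = 0.0861).

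Solute carriers move small molecules across membranes. Among 24 carriers of amino acids 1 rose, among 49 of sugars, ions and vitamins 1 rose and 1 fell, and among 49 other carriers 1 rose and 2 fell. Slc26a11, a sulfate and chloride transporter of this set, was at 3.6, 3.15 and 3.09 FPKM in wild-type LSK and 0.599, 0.315 and 0.351 FPKM in Uhrf1-/- LSK. It fell by 1.59 ± 0.23 (SE; adjusted p = 0.0272 without the block and 0.000455 with it). Slc41a3, a magnesium transporter gene, was at 2.24, 2.06 and 0.284 FPKM in wild-type LSK and 5.55, 4.31 and 3.01 FPKM in Uhrf1-/- LSK and rose by 1.15 ± 0.24 (SE; adjusted p = 0.012 with the block). Slc7a8, which carries large neutral amino acids, was at 1.98, 2.56 and 0.783 FPKM in wild-type LSK and 4.89, 4.6 and 4.59 FPKM in Uhrf1-/- LSK and rose by 1.09 ± 0.25 (SE; adjusted p = 0.0208 with the block). Slc45a3, a sugar transporter-like gene, was at 0.73, 0.433 and 0.363 FPKM in wild-type LSK and 2.49, 3.19 and 2.41 FPKM in Uhrf1-/- LSK and rose by 1.29 ± 0.23 (SE; adjusted p = 0.00352 with the block). Of these 4 genes none overlapped between the genotypes.

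Slc18a1 loads monoamines into vesicles. It was at 9.26, 10.7 and 4.48 FPKM in wild-type LSK and 2.59, 2.92 and 1.41 FPKM in Uhrf1-/- LSK and fell by 1.43 ± 0.24 (SE; adjusted p = 0.00186 with the block). Slc35d3, a nucleotide sugar transporter-like gene needed for platelet dense granules, was at 12.8, 18.9 and 13.3 FPKM in wild-type LSK and 5.86, 7.23 and 2.32 FPKM in Uhrf1-/- LSK and fell by 1.46 ± 0.26 (SE; adjusted p = 0.00331 with the block). Both were low in the LK library too, at 0.539 and 1.5 FPKM. No member was called among 35 mitochondrial carriers, 21 ABC transporters and 33 ion channels, where 3, 0 and 5 had an unadjusted p under 0.05 in the block fit.

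**Figure D3:**
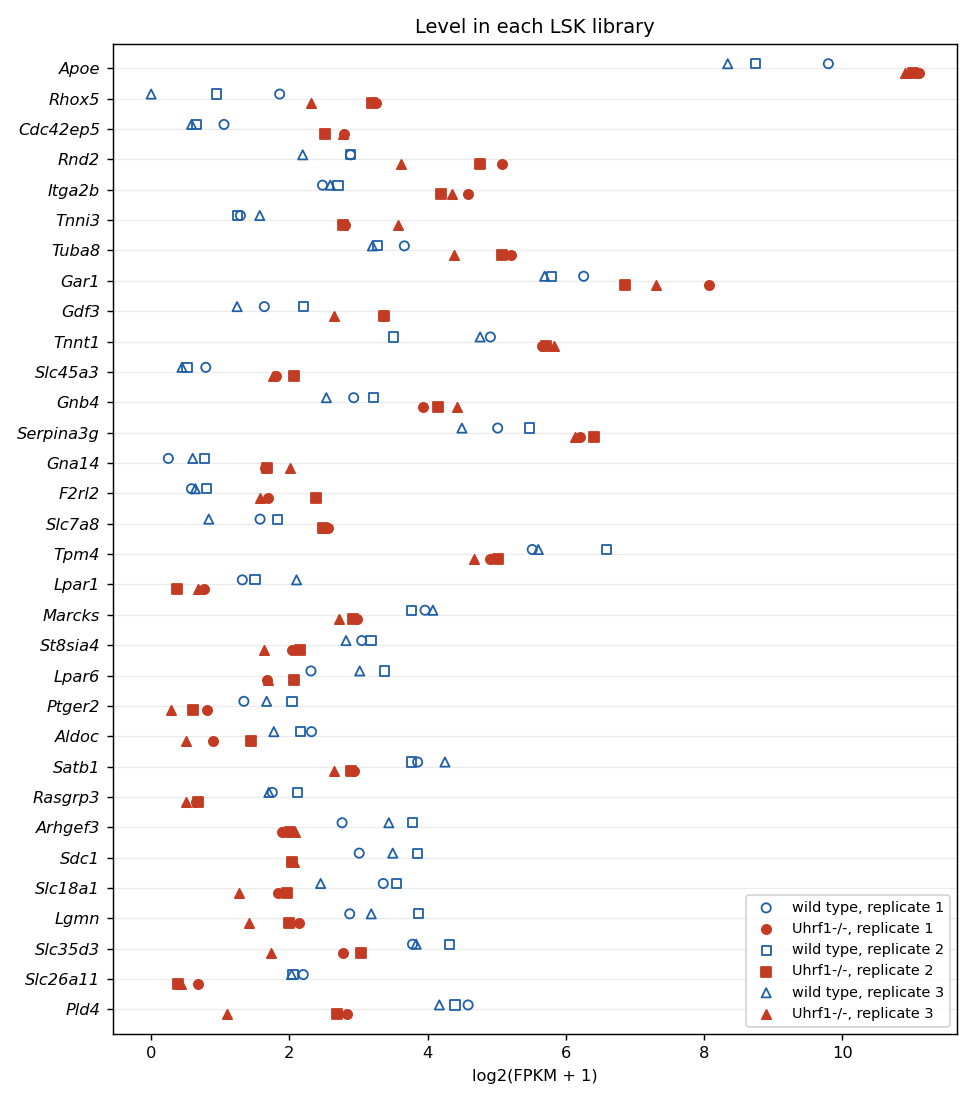
Level of 32 genes from the functional lists in each of the 6 LSK libraries (x axis, log2(FPKM + 1)), ordered by their difference. Open blue symbols are wild-type and filled red symbols Uhrf1-/- libraries, with 1 symbol shape per replicate number; the 2 genotypes do not overlap in any of these genes.

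Genes for adhesion, matrix and the cytoskeleton moved in both directions. Itga2b, the integrin alphaIIb chain of platelets and of early blood progenitors, was at 4.58, 5.52 and 5.03 FPKM in wild-type LSK and 22.9, 17.3 and 19.4 FPKM in Uhrf1-/- LSK. It rose by 1.78 ± 0.25 (SE; adjusted p = 0.0272 without the block and 0.000294 with it) and was the 1 of 12 integrin genes called. Sdc1, the heparan sulfate proteoglycan syndecan-1, was at 7.06, 13.5 and 10.3 FPKM in wild-type LSK and 3.08, 3.12 and 3.21 FPKM in Uhrf1-/- LSK and fell by 1.41 ± 0.25 (SE; adjusted p = 0.00314 with the block). St8sia4, a polysialyltransferase gene, was the 1 of 51 glycosyltransferase and sialyltransferase genes called. It was at 7.27, 8.07 and 6.06 FPKM in wild-type LSK and 3.09, 3.46 and 2.09 FPKM in Uhrf1-/- LSK and fell by 1.08 ± 0.23 (SE; adjusted p = 0.0155 with the block). No gene was called among 9 cadherins and catenins, 13 junction genes, 21 tetraspanins and 11 metalloprotease genes, of which 1, 2, 4 and 2 had an unadjusted p under 0.05.

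Tuba8, an alpha-tubulin gene, was the 1 of 34 tubulin and microtubule genes that rose, by 1.5 ± 0.24 (SE; adjusted p = 0.00154 with the block), at 11.7, 8.71 and 8.21 FPKM in wild-type LSK and 35.9, 32.6 and 19.8 FPKM in Uhrf1-/- LSK. Of 57 actin genes, Marcks, which crosslinks actin at the membrane, and the tropomyosin gene Tpm4 fell, by 1.06 ± 0.24 (SE; adjusted p = 0.0219 with the block) and 1.04 ± 0.25 (SE; adjusted p = 0.032 with the block). Neither was called after length centring (adjusted p = 0.0821 and 0.0704). Of 82 cilium and centrosome genes none was called and 9 had an unadjusted p under 0.05.

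Genes of the striated muscle contractile apparatus gave 3 rises in 13 tested genes (23.1% against 2.06% of all genes) and no fall. Tnni3, cardiac troponin I, was at 1.45, 1.38 and 1.97 FPKM in wild-type LSK and 5.96, 5.84 and 10.9 FPKM in Uhrf1-/- LSK and rose by 1.67 ± 0.24 (SE; adjusted p = 0.000431 with the block). Tnnt1, slow skeletal troponin T, was at 29.1, 10.4 and 26.1 FPKM in wild-type LSK and 49.5, 51.7 and 55.7 FPKM in Uhrf1-/- LSK and rose by 1.34 ± 0.27 (SE; adjusted p = 0.0107 with the block). The myosin light chain gene Myl10 was at 4.82, 1.33 and 6.66 FPKM in wild-type LSK and 9.68, 9.23 and 11.7 FPKM in Uhrf1-/- LSK and rose by 1.25 ± 0.28 (SE; adjusted p = 0.0198 with the block). All 3 were separate between the genotypes, and the levels of Tnni3 and Myl10 in the LK library were 1.44 and 0.68 FPKM. After length centring Myl10 was not called (adjusted p = 0.0649), and without pair 2 none of the 3 was. Tnnt1 and Tnni3 lie close together on chromosome 7, at 4504569-4515975 and 4518305-4522718. The median of the list was 0.19, with pair medians of 0.01, 0.56 and 0.14. The synapse scaffold gene Shank3 rose as 1 of 10 synapse genes, by 0.96 ± 0.24 (SE; adjusted p = 0.0419 with the block), and was not called after length centring (adjusted p = 0.062).

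In metabolism few genes passed the test. Aldoc, a glycolytic aldolase, was at 4.0, 3.46 and 2.42 FPKM in wild-type LSK and 0.863, 1.73 and 0.423 FPKM in Uhrf1-/- LSK and fell by 1.13 ± 0.24 (SE; adjusted p = 0.012 with the block), the 1 call among 21 glycolysis genes. It was not called after length centring (adjusted p = 0.0871). Pld4, a phospholipase D family nuclease of myeloid and plasmacytoid dendritic cells, was at 23, 20.1 and 17 FPKM in wild-type LSK and 6.11, 5.44 and 1.13 FPKM in Uhrf1-/- LSK and fell by 2.18 ± 0.28 (SE; adjusted p = 0.000187 with the block). It was the 1 of 25 sphingolipid and phospholipid genes called, and the median of that list was −0.33. Mgst2, a microsomal glutathione transferase, fell by 1.11 ± 0.26 (SE; adjusted p = 0.0267 with the block) with overlapping groups, and was not called after length centring (adjusted p = 0.16).

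No gene was called, by limma with or without the block, among 22 genes of cholesterol synthesis and uptake, 14 of fatty acid synthesis, 19 of fatty acid oxidation, 25 of the citric acid cycle, 23 of the pentose phosphate pathway and nucleotide synthesis, 20 of one-carbon metabolism and 15 of polyamine and arginine metabolism. In the block fit 2, 0, 0, 3, 3, 3 and 3 of them had an unadjusted p under 0.05. Without the block there was none. The 78 genes of the respiratory chain and ATP synthase had a median of 0.39. Of the 78, 66 were higher in the Uhrf1-/- group, against 4894 of all 10608 genes. None was called and none had an unadjusted p under 0.05 in the block fit, against 1 without the block. The medians by pair were −0.14, 1.36 and 0.08, with the shift in the pair that holds wild-type replicate 2. The median of the list was 0.20 after length centring. The 76 mitochondrial ribosomal protein genes had a median of 0.21 and pair medians of −0.07, 0.81 and −0.07. They too gave no call and no unadjusted p under 0.05 in the block fit.

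Among 18 targets of the amino acid response factor ATF4, Atf5 and Nupr1 rose, by 1.10 ± 0.27 (SE; adjusted p = 0.0371 with the block) and 1.06 ± 0.27 (SE; adjusted p = 0.0399 with the block). Both code for stress-response transcription regulators. Atf5 overlapped between the groups, and neither was called after length centring (adjusted p = 0.135 and 0.108). The median of the 18 was 0.05. None of 20 unfolded protein response genes and 16 hypoxia targets was called, and 4 genes of each list had an unadjusted p under 0.05. Gar1, a protein of the H/ACA particles that make pseudouridine in ribosomal RNA, was at 75.6, 54.5 and 50.8 FPKM in wild-type LSK and 268, 115 and 158 FPKM in Uhrf1-/- LSK and rose by 1.5 ± 0.27 (SE; adjusted p = 0.00382 with the block). It was the 1 call among 34 ribosome biogenesis genes (2.94% against 2.06% of all genes). Of the 34, 26 were higher in Uhrf1-/- LSK, against 4894 of all 10608 genes. Without overlap 6 were higher, against 4.61% of all genes. The list's pair medians were 0.20, 0.12 and 0.06. After length centring Gar1 lost its call (adjusted p = 0.0661) and the methyltransferase gene Fbl of the same list gained one (adjusted p = 0.0381). Fbl was at 274, 115 and 261 FPKM in wild-type LSK and 549.8, 293 and 507 FPKM in Uhrf1-/- LSK.

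Ctss and Lgmn, proteases of the lysosome, fell as 2 of 33 lysosome genes, by 1.12 ± 0.23 (SE; adjusted p = 0.0116 with the block) and 1.46 ± 0.26 (SE; adjusted p = 0.0035 with the block). Lgmn was at 6.33, 13.7 and 8.09 FPKM in wild-type LSK and 3.42, 2.98 and 1.68 FPKM in Uhrf1-/- LSK, with no overlap, and Ctss was at 12.4, 8.88 and 2.9 FPKM in wild-type LSK and 4.59, 3.77 and 0.879 FPKM in Uhrf1-/- LSK, with overlap. The summed level of 10 macrophage marker genes was 167, 101 and 25.4 FPKM in the wild-type and 54.1, 51.7 and 16.7 FPKM in the Uhrf1-/- libraries. Cd163 stayed under 0.1 FPKM in all 6 libraries. The part of macrophages in the fall of Ctss, Lgmn and Pld4 was not tested. Serpina3g, an inhibitor of cysteine cathepsins, was at 31.3, 43.3 and 21.6 FPKM in wild-type LSK and 73.2, 83.7 and 68.9 FPKM in Uhrf1-/- LSK and rose by 1.25 ± 0.25 (SE; adjusted p = 0.00691 with the block). It was the 1 call among 8 serpins. No gene was called among 38 proteasome subunits, 62 translation factors, 20 tRNA synthetases, 28 autophagy genes, 70 F-box and cullin ligases, 30 TRIM genes and 47 ubiquitin-specific proteases. Unadjusted p was under 0.05 in the block fit for 1, 4, 1, 4, 7, 6 and 4.

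Apoe and Apoc1, neighbouring genes for lipoprotein components, both rose among 22 genes of endocytosis and lipoprotein handling. Apoe was at 890.4, 429 and 324 FPKM in wild-type LSK and 2213, 2087 and 1927 FPKM in Uhrf1-/- LSK, and rose by 2.05 ± 0.48 (SE; adjusted p = 0.0265 with the block). Its call was absent without the block (adjusted p = 0.158). Of 30 SNARE and granule release genes 1 fell. It was Sytl1, which links Rab27 vesicles to the membrane, at 14.7, 9.69 and 5.94 FPKM in wild-type LSK and 2.8, 3.52 and 1.76 FPKM in Uhrf1-/- LSK, with a fall of 1.54 ± 0.25 (SE; adjusted p = 0.0015 with the block). Among 84 Rab GTPases and effectors none was called and 4 had an unadjusted p under 0.05. Dynll2, a dynein light chain gene, rose by 0.97 ± 0.25 (SE; adjusted p = 0.0452 with the block) as 1 of 30 transport motor genes, and was not called after length centring (adjusted p = 0.0772).

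Among regulators of chromatin and transcription the calls were few. Many KRAB zinc finger proteins recruit silencing complexes to transposable elements. None of 229 tested Zfp genes was called, 26 (11.4%) had an unadjusted p under 0.05 against 12.05% of all genes, and the median was −0.15. None was called among 43 chromatin remodellers, 56 acetyltransferases, deacetylases and coregulators, 47 lysine methyltransferases and demethylases, 30 forkhead, Sox and Klf factors and 26 bHLH factors, with 0, 4, 1, 6 and 7 at an unadjusted p under 0.05. Of 22 homeobox genes outside the Hox clusters 1 rose and 1 fell. Rhox5, an X-linked homeobox gene of reproductive tissue whose promoter is known to be silenced by DNA methylation in somatic cells, was at 2.63, 0.92 and 0 FPKM in wild-type LSK and 8.53, 8.18 and 3.96 FPKM in Uhrf1-/- LSK and rose by 1.99 ± 0.25 (SE; adjusted p = 0.000115 with the block). With a pseudocount of 0.1 it was not called (adjusted p = 0.12). Satb1, a chromatin organiser of lymphoid cells, was at 13.5, 12.7 and 18 FPKM in wild-type LSK and 6.69, 6.39 and 5.26 FPKM in Uhrf1-/- LSK and fell by 1.13 ± 0.25 (SE; adjusted p = 0.0162 with the block). Nfil3, a bZIP factor of lymphoid development and the clock, fell by 1.08 ± 0.25 (SE; adjusted p = 0.027 with the block) with overlapping groups, and was not called after length centring (adjusted p = 0.0554).

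RNA and genome maintenance genes gave no call with limma. That holds for 104 splicing factors, 39 genes of RNA modification and decay, 51 nuclear pore and export genes, 79 Mediator and polymerase subunits and 60 DNA repair genes, where 2, 4, 2, 0 and 5 had an unadjusted p under 0.05 in the block fit. In all, 30 of the 77 lists held a called gene and 47 held none. The 47 lists hold 1874 different genes. Of these, 160 (8.54%) had an unadjusted p under 0.05 in the block fit, against 12.05% of all genes, and 55 had one without the block. The 77 lists together hold 2713 tested genes, of which 24 rose and 27 fell. In 54 of the 57 lists with at least 20 tested genes the median difference was within 0.25 of 0. The pair median farthest from 0 was that of pair 2 in 43 of the 57, and in 16 the 3 pair medians had one sign.

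**Figure D4:**
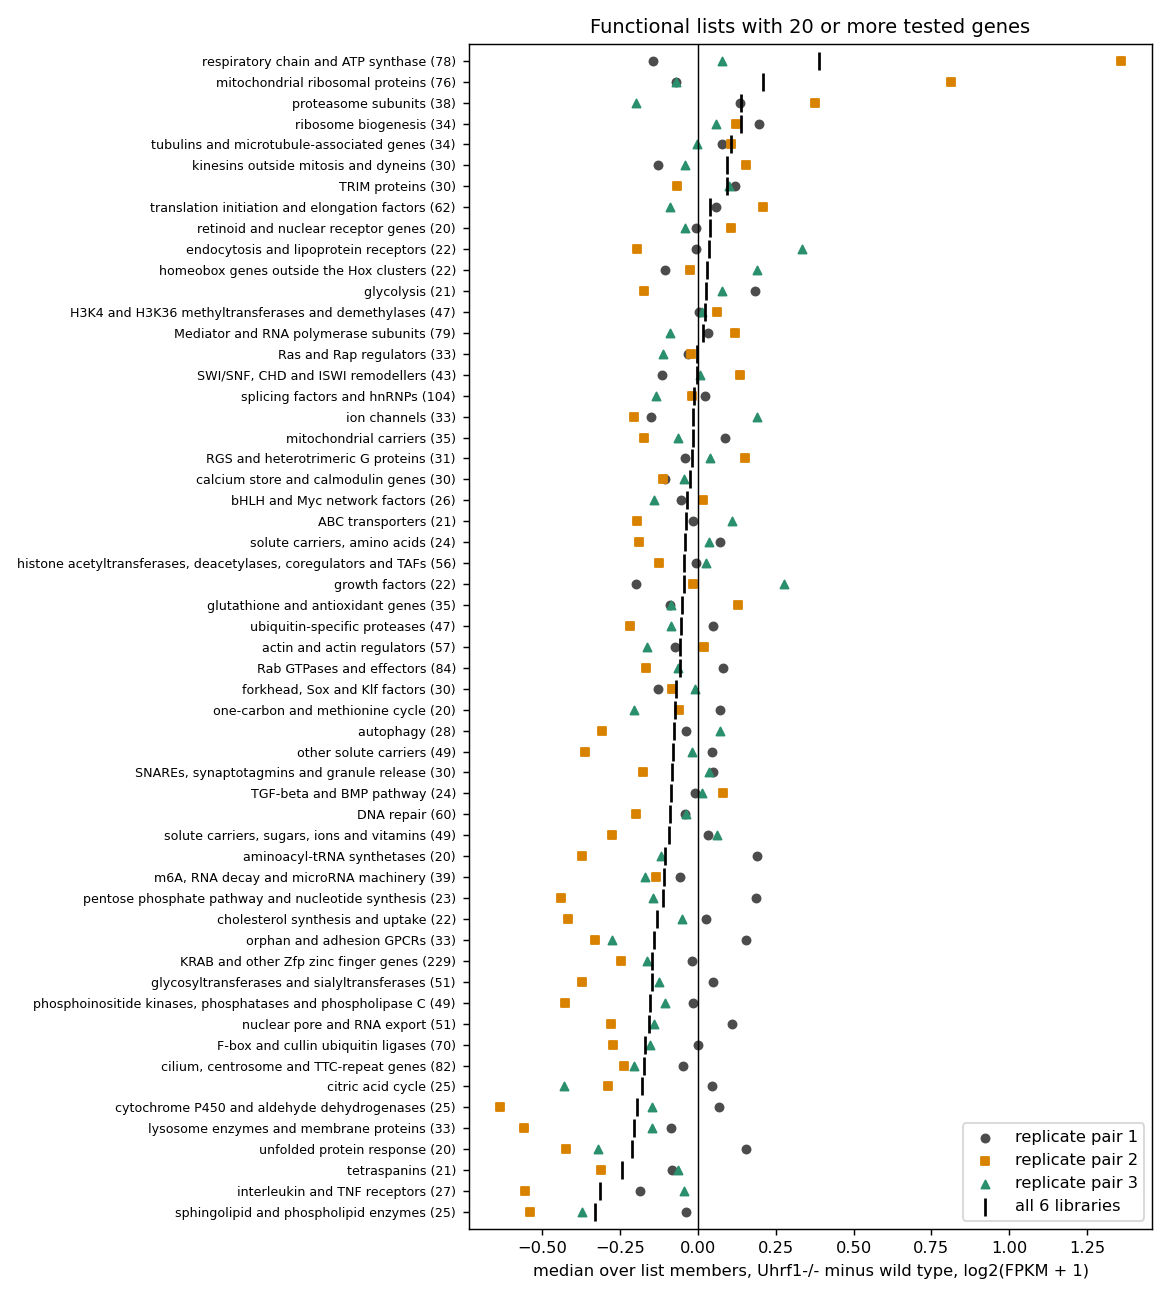
Median difference between Uhrf1-/- and wild-type LSK over the members of functional lists with 20 or more tested genes (x axis, log2(FPKM + 1); number of genes in brackets), for each replicate pair and, as black bars, for all 6 libraries. Respiratory chain genes reach 1.36 in pair 2 but −0.14 and 0.08 in pairs 1 and 3.

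Promoter sequences were then compared, since Uhrf1 acts on CpG methylation. RefSeq windows of GRCm38.p6, from 250 bases before to 50 bases after the first listed start, matched 8497 of the 10608 tested genes by gene ID. The median window held 21 CpG dinucleotides over all genes, 7 over the 100 matched genes that rose in the block fit and 8 over the 69 that fell. Windows with 5 CpGs or fewer made up 8.33% of all genes, 39% of those that rose and 47.8% of those that fell. Low promoter CpG number was thus shared by both directions among called genes. It was weaker among all matched genes without overlap between the genotypes, with medians of 17 for 380 higher and 20 for 517 lower genes. Between expression levels the median ran from 4 to 10 for genes called higher and from 3 to 18 for genes called lower. With the richest RefSeq window of each gene the medians were 22, 7 and 8. These are descriptions of chosen genes and carry no test.

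**Figure D5:**
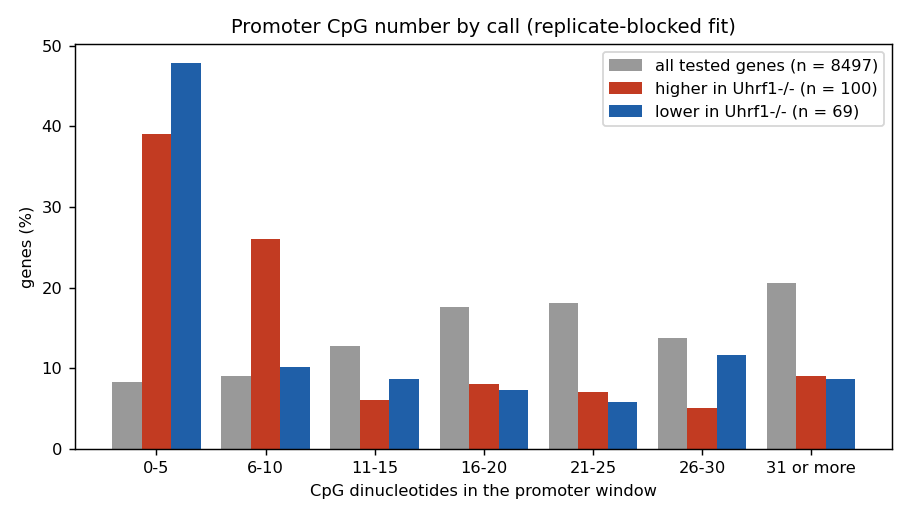
Share of genes (y axis, %) by number of CpG dinucleotides in the promoter window (x axis), for all tested genes, genes higher and genes lower in Uhrf1-/- LSK in the block fit. In the lowest class, 0 to 5 CpGs, the bars stand at 8.33%, 39% and 47.8%.

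The 250 bases before the start of 6 genes that rose are given to show both ends of this range, 5′ to 3′ on the gene's strand, with each CpG in capitals. Gata2, Ppp1r14a and Mfsd2b had the most CpGs in their windows among matched genes that rose without the block or were among the 20 largest rises. Sva, Gp5 and Tmem40 were chosen, after their values were seen, for having none in these bases. Gp5 encodes the platelet glycoprotein V and was at 0.851, 1.42 and 0.257 FPKM in wild-type LSK and 10.1, 8.72 and 3.53 FPKM in Uhrf1-/- LSK.
Gata2, chr6:88193641-88193890, plus strand: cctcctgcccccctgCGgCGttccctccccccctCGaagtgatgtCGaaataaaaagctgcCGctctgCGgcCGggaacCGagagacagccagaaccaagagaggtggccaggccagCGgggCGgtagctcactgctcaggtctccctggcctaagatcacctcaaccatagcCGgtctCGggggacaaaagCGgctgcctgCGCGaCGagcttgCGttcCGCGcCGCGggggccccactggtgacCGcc
Ppp1r14a, chr7:29289070-29289319, plus strand: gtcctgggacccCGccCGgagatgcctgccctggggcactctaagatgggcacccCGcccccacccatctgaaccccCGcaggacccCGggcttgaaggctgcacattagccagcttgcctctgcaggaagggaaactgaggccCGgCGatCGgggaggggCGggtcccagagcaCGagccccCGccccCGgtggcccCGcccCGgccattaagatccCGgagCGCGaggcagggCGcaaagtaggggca
Mfsd2b, chr12:4874360-4874609, minus strand: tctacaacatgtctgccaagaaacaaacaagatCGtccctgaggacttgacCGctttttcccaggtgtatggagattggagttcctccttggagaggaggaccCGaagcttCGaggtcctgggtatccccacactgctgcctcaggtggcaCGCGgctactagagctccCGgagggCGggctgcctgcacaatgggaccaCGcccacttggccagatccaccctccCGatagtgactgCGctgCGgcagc
Sva, chr6:42038144-42038393, plus strand: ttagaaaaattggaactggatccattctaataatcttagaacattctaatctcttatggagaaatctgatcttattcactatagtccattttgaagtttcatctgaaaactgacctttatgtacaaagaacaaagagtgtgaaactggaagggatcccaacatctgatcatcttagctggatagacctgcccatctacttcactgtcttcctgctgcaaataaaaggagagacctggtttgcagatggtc
Gp5, chr16:30310782-30311031, minus strand: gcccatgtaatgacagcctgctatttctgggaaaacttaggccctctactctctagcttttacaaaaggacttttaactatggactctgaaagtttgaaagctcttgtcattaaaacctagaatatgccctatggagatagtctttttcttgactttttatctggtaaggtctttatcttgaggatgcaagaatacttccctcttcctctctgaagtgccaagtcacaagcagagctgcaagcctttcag
Tmem40, chr6:115762467-115762716, minus strand: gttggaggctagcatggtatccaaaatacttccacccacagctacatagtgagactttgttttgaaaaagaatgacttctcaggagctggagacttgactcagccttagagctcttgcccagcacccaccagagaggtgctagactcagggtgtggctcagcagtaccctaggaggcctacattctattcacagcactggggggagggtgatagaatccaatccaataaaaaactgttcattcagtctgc
Gata2 held 22 CpGs in these bases, Ppp1r14a 18 and Mfsd2b 12. Whether any of these CpGs was methylated was not measured.

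Short motifs were searched in the windows on both strands. The core of the interferon-stimulated response element, GAAA, any 2 bases and GAAA again, was found in 18% of the windows of genes that rose, 7.25% of those that fell and 3.05% of all. The GATA-type motif AGATAA was in 13%, 11.6% and 6.31%, and TATAAA in 14%, 18.8% and 6.86%. CACGTG, an E-box, was in 7.0%, 4.35% and 10.7%. CCAAT was in 28%, 42% and 39.9%, and TGACNNNGC, the antioxidant response core, in 21%, 13% and 15.3%. TGACGTCA, the cyclic AMP response element, was in 2.0% and 0% of the called sets and 3.42% of all. A match gives the letters only and does not mark a bound site.

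Called genes lay on the autosomes and on the X chromosome. The X held 5 genes that rose and none that fell among 322 tested, or 1.55% against 2.06% of all genes. One of them, Xlr, chosen after its values were seen, belongs to a lymphoid and germ cell gene family and was at 3.06, 1.23 and 2.21 FPKM in wild-type LSK and 7.59, 8.91 and 6.95 FPKM in Uhrf1-/- LSK and rose by 1.51 ± 0.26 (SE; adjusted p = 0.00219 with the block). Chromosome 3 had the highest share, with 9 rises and 12 falls in 477 genes (4.40%). Of 249 long noncoding RNA genes, 4 rose and 1 fell, or 2.01%. Gm15915, Gm4262, Gm16702 and 1700097N02Rik rose and C030013G03Rik fell, all but the first named after their values were seen. On the count values 1700097N02Rik and C030013G03Rik were not called (adjusted p = 0.116 and 0.352), and after length centring Gm16702 and 1700097N02Rik were not (adjusted p = 0.0639 and 0.0896). Gm15915 was at 8.38, 5.35 and 1.27 FPKM in wild-type LSK and 27.5, 29.2 and 27.9 FPKM in Uhrf1-/- LSK, against 93.5 FPKM in the LK library, and rose by 2.51 ± 0.35 (SE; adjusted p = 0.00304 with the block). It was not called without the block (adjusted p = 0.082) or, with the block, at a pseudocount of 0.1 (adjusted p = 0.053). By level, 3.16% of genes with a mean of 2 to 5 FPKM were called, and 1 of the 704 genes over 200 FPKM, where the median difference was 0.35.

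Markers of some other blood cells differed between the genotypes. The summed level of 8 mast cell and basophil markers was 6.68 to 13.9 FPKM in the wild-type and 52.4 to 65.1 FPKM in the Uhrf1-/- libraries, with Fcer1a and Tpsb2 at 0 throughout. The difference rested mostly on Cpa3, at 3.61, 4.13 and 9.77 FPKM in wild-type LSK and 42.3, 55.3 and 41.7 FPKM in Uhrf1-/- LSK. Hdc overlapped between the genotypes. The sum of 9 megakaryocyte markers was 106 to 191 and 186 to 275 FPKM, which overlapped, and Itga2b, Gp5, Gp9 and Treml1 among them rose. The call for Gp9 was lost after length centring and on the count values (adjusted p = 0.146 and 0.0687). Their part in the rises of Gata2, Tmem40, Itga2b and other genes above was not tested. The sums overlapped between the genotypes for 8 erythroblast markers (28.5 to 190.1 and 73.3 to 88.9 FPKM), for 10 neutrophil and monocyte markers (998 to 1508 and 1151 to 1207 FPKM), for 10 hepatoblast markers (34.2 to 76.6 and 36.6 to 82.9 FPKM) and for 8 stroma markers (2.03 to 3.62 and 2.35 to 2.95 FPKM). For 8 endothelial markers they were 49.6 to 83.5 and 79.7 to 85.2 FPKM, also with overlap. The neutrophil and monocyte sum came mostly from Mpo and Prtn3. Of its 7 tested genes 1 rose and 1 fell with the block, both without overlap. Ctsg rose, from 5.87, 3.96 and 11.8 FPKM in wild-type LSK to 17.1, 20.5 and 19.7 FPKM in Uhrf1-/- LSK. S100a8 fell, from 68, 17.9 and 13.1 FPKM to 3.18, 5.22 and 1.11 FPKM.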

How the data were processed

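RNA-seq was compared between 3 Uhrf1-/- and 3 wild-type LSK libraries. The authors deposited FPKM values and normalised count values (a signal, since they are not whole numbers) per gene and library, per the file headers. The submitters' processing notes name TopHat2 2.0.9, Cufflinks 2.1.1 and mm10. The count values sum to 15556959 to 20819345 per LSK library, and their steps correspond to about 16808772 to 25804377 reads.

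From the deposited FPKM, log2(FPKM + 1) was fitted with limma 3.58.1 in R 4.3.3 (empirical Bayes with trend and robust settings, Benjamini-Hochberg adjustment, threshold 0.05) over genes averaging 1 FPKM or more. The main fit had no block. A fit with the replicate number as a block is printed wherever it changes a call. Where a bracket gives adjusted p-values of both fits, the SE is that of the fit without the block. Where a bracket gives the block fit alone, the SE is from that fit and the gene was not called without the block. The numbers were read as pairs because the deviations of same-numbered libraries from their group means correlated at 0.35, 0.33 and 0.65 across genes, against −0.59 to 0.21 for other pairings. Deviations within a group sum to 0, so these correlations are not independent. Replicates 1 and 2 were less clearly paired: wild-type 2 with Uhrf1-/- 1 gave 0.21, and wild-type 1 with Uhrf1-/- 2 gave 0.16. The labels do not state the pairing. The script was tested on simulated data. The members and the 77 lists were chosen with earlier results of these data known. In 1 list a name pattern was corrected because it also matched genes of another family. Some items are not reported here.

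The genes named are those called in the main fit, the 20 largest rises and 20 largest falls among genes called with the block whose groups do not overlap, list members called in either fit, up to 3 further members by p, and, where a list has no call, the 2 members of highest level; not all are printed. Genes whose symbols had turned into dates (27) are not named. Transcript lengths are from GENCODE vM21 and promoters from RefSeq GRCm38.p6. The reported alternatives are another pseudocount, filter, scaling, unit and moderation, each library left out, and centring within length groups. The counting is not stated to use strand, so reads of overlapping genes cannot be told apart.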

Additional observations from a re-analysis of the deposited data

How the results depend on the processing

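Without the replicate block limma found 12 genes higher and 6 lower, and pairing the libraries by the replicate block gave 131 and 88. With no filter, over 16724 genes, the counts were 0 and 0, with 426 higher and 541 lower at an unadjusted p under 0.05; the larger number of genes tested is part of that alternative. Count values gave 7 higher, a minimum mean of 5 FPKM gave 2 lower, and moderation without trend and robust settings gave 1 lower. Leaving out 1 library gave 0 to 3 higher and 0 to 1 lower; without wild-type replicate 1 or 2 both counts were 0, with 694 and 805, and 263 and 203, at an unadjusted p under 0.05. In the block fit, leaving out pair 1, 2 or 3 gave 338, 13 and 117 higher and 318, 8 and 84 lower. Alternatives added after seeing the data, all with the block, gave 126 higher and 76 lower with median-of-ratios scaling, 92 and 49 with count values, 108 and 80 with a pseudocount of 0.1, and 102 and 67 with length-bin centring. Uhrf1 missed the threshold with no filter (−2.62, adjusted p = 0.129), and ranged from −2.92 to −2.36 as 1 library was left out. The cause of these changes was not tested. Of the 103 genes recomputed under every setting that tested them, Dusp5 alone changed sign, at 0.035 without Uhrf1-/- replicate 3, and was at −2.59 without wild-type replicate 3. Counting tests with edgeR or DESeq2 were not run, because whole reads could not be recovered for every gene from the deposited values. In the LSK libraries 98.1% to 98.7% of low count values lay within 0.02 steps of a whole multiple, so read totals are estimates. The 3 libraries a group, 1 of which stands apart, limit the precision.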

Other observations

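Some gene families outside the lists held several genes called in the block fit. They were chosen after their values were seen and carry no test of the family. Some dual-specificity phosphatases and the Sprouty proteins dampen MAP kinase signalling. Of 19 tested genes named Dusp, Spred or Spry, 4 fell and none rose, against 0.83% of all genes lower and 1.23% higher. The set is defined by these names and not by function. Whether each member, Dusp22 included, dampens this signalling was not tested. Dusp6 was at 12.8, 30.6 and 12.9 FPKM in wild-type LSK and 6.78, 9.39 and 6.03 FPKM in Uhrf1-/- LSK and fell by 1.14 ± 0.25 (SE; adjusted p = 0.0162 with the block). Dusp22 was at 6.95, 9.03 and 7.44 FPKM in wild-type LSK and 4.55, 3.52 and 2.24 FPKM in Uhrf1-/- LSK and fell by 1.02 ± 0.25 (SE; adjusted p = 0.0346 with the block). Dusp5 fell within every pair, by 1.21 ± 0.25 (SE; adjusted p = 0.0119 with the block), but its level differed more between replicates than between genotypes, at 60.8, 41 and 1.85 FPKM in wild-type LSK and 17.3, 20.8 and 0.503 FPKM in Uhrf1-/- LSK. Spry1 fell by 1.27 ± 0.27 (SE; adjusted p = 0.0129 with the block), also with overlapping groups. Dusp22 was not called after length centring or on the count values (adjusted p = 0.0873 and 0.166).

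Notch1, the receptor that directs T cell fate, was the 1 of 18 Notch pathway genes called. It was at 12.4, 7.42 and 15.2 FPKM in wild-type LSK and 4.67, 4.18 and 4.89 FPKM in Uhrf1-/- LSK and fell by 1.14 ± 0.25 (SE; adjusted p = 0.0157 with the block). Of 7 class II antigen presentation genes, H2-Oa and H2-DMb2, which tune peptide loading, fell by 1.34 ± 0.24 (SE; adjusted p = 0.00331 with the block) and 1.12 ± 0.24 (SE; adjusted p = 0.0141 with the block). H2-Oa was at 13.5, 10.4 and 12.5 FPKM in wild-type LSK and 5.35, 3.61 and 3.67 FPKM in Uhrf1-/- LSK, with no overlap. On the count values neither was called (adjusted p = 0.0653 and 0.391). Secreted ribonucleases changed in both directions: of 5 tested, Ear1 and Ear2, which are near-identical eosinophil-type genes whose reads may be split between them, rose and Rnase4 fell. Rnase4 was at 10.2, 7.97 and 4.63 FPKM in wild-type LSK and 3.18, 2.4 and 2.24 FPKM in Uhrf1-/- LSK. Ear1 had 0.0797, 0.059 and 0 FPKM in wild-type LSK and 2.26, 4.32 and 0.559 FPKM in Uhrf1-/- LSK. On the count values Ear1, Ear2 and Rnase4 were not called (adjusted p = 0.0848, 0.186 and 0.0741), and Ear1 and Ear2 were not after length centring (adjusted p = 0.0558 and 0.172). Ddx4, a helicase gene of the germ line, was at 5.69, 12.9 and 5.27 FPKM in wild-type LSK and 2.76, 2.93 and 1.89 FPKM in Uhrf1-/- LSK and fell by 1.26 ± 0.25 (SE; adjusted p = 0.00856 with the block).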
